A study of Mus musculus with 6 samples.

Results

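The Wnt ligands, their receptors and their secreted modulators were followed in the E14.5 lacrimal gland bud of control and Pea3 TKO mouse embryos. The members were taken by gene symbol alone and comprised 46 of the 23420 symbols in the count tables. They were 19 Wnt ligands, 10 Frizzled receptors, 2 Lrp co-receptors, 4 R-spondins, 2 R-spondin receptors, 5 inhibitors that bind the ligands (4 Sfrp genes and Wif1) and 4 Dkk genes. Epithelium was dissected by laser capture from frozen sections and sequenced for 3 control and 3 Pea3 TKO samples, all on a mixed background. Controls carried the Le-Cre transgene, labelled as wild type in the sample titles. Pea3 TKO samples carried Le-Cre, Pea3-/-, Ermfl/fl and Er81fl/fl, so that Etv4 (Pea3) was missing from every tissue whereas Etv5 (Erm) and Etv1 (Er81) were deleted only where Le-Cre was active. Both groups carried Le-Cre, a transgene active in conjunctiva and lacrimal gland that also makes GFP. The labels do not say which embryos gave each sample, so the p-values measure the spread between samples.

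Wnt proteins are secreted lipid-modified ligands that bind Frizzled receptors on the cell surface. Together with the co-receptors Lrp5 and Lrp6 they stabilise beta-catenin in the canonical pathway, while other combinations act through cell polarity and calcium. Sfrp proteins and Wif1 bind the ligands, Dkk proteins bind Lrp5 and Lrp6, and R-spondins acting through Lgr receptors raise the amount of Frizzled at the surface. In glands and ectodermal appendages, Wnt signaling is known to take part in placode formation, budding and branching.

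The libraries held 14194775 to 17860140 counts, at which 3 counts correspond to 0.169 to 0.21 CPM. Levels are given as CPM, the count scaled to the library total (1e+06) after TMM normalization, and changes as the log2 fold change of Pea3 TKO over control with its standard error (SE). A gene was taken as changed when the adjusted p of the edgeR quasi-likelihood test, corrected over all 13087 genes tested, was under 0.05. The summed level of the deleted genes Etv1, Etv4 and Etv5 was 1170 to 1370 CPM in controls and 108 to 215 CPM in Pea3 TKO. The groups also differed in other ways. Xist had 0, 7 and 0 counts in controls and 1675, 465 and 1 in Pea3 TKO replicates 1 to 3, and the Y-linked genes Ddx3y, Eif2s3y, Kdm5d and Uty together fell on the opposite side in each sample, so only Pea3 TKO replicate 3 matched the controls in embryo sex. Control replicate 2 stood apart in its lens markers (Cryaa, Cryba1, Mip), with a sum of 802 CPM against 126 to 233 in the other 5 samples.

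Of the 46 members, 32 were expressed enough to test. Of these, 12 rose and 4 fell in Pea3 TKO, and 16 did not pass the test. The share that changed was 50%, beside 25.0% of all genes tested. In the higher direction the background was 13.6% and in the lower direction 11.3%. The groups did not overlap for 18 of the 32 tested members, beside 43.9% of all genes tested. The median log2 fold change was 1 over the members and 0.01 over all genes. The changes fell differently by class, with 8 of 12 tested ligands rising and none falling, and 2 Frizzled receptors rising while 3 fell. In dissected tissue, more cells of a type and more RNA per cell cannot be told apart.

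**Figure D1:**
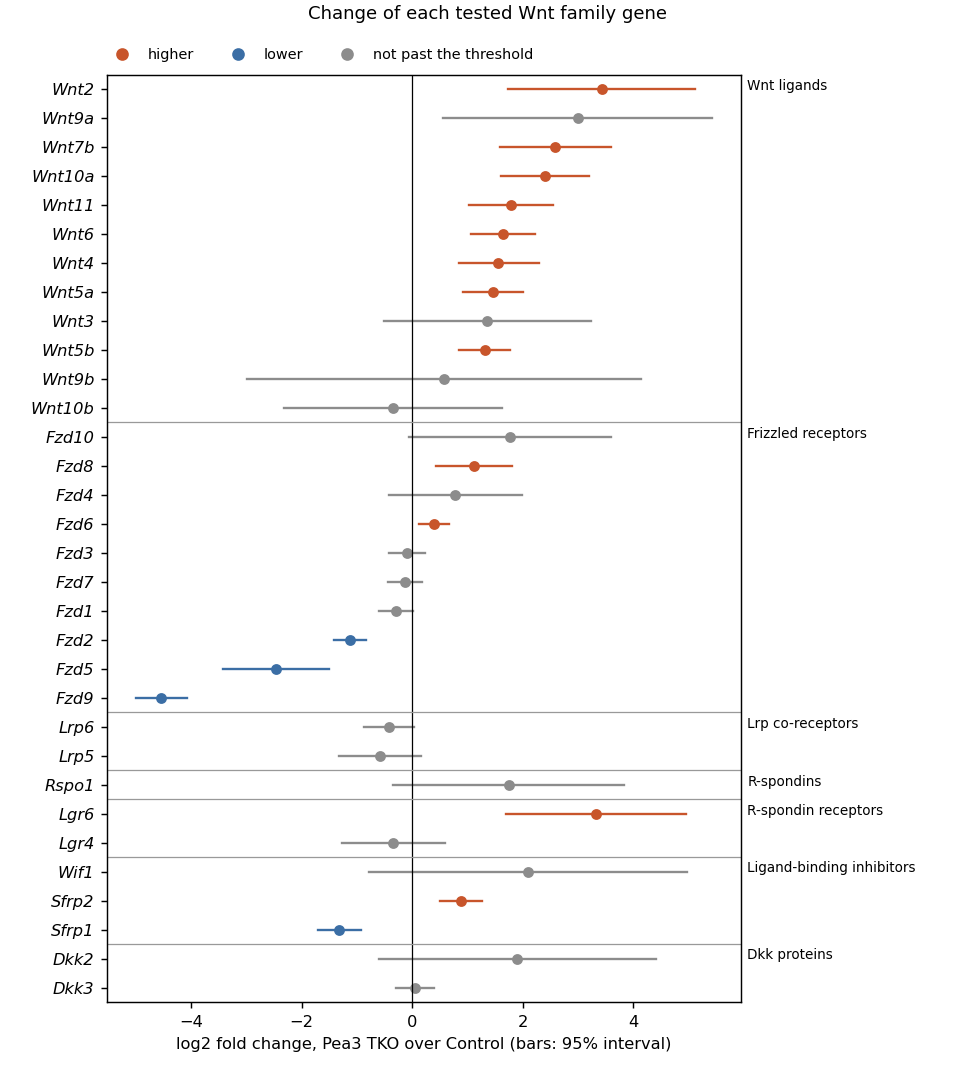
Log2 fold change of Pea3 TKO over control for the 32 tested members, grouped by class and ordered within it, with 95% intervals from the quasi-likelihood fit. Orange points passed the test as higher, blue points as lower and grey points did not pass. The ligands lie mostly to the right of 0, and Fzd9 lies farthest to the left at -4.54.

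The DNA before the start sites of a few members that changed, some up and Fzd9 down, is shown first. The RefSeq table on GRCm38.p6 held promoters for 30 of the 46 members and for 9 of the 16 that changed. The 250 bases before the start site in that table are given 5′ to 3′ on the coding strand. For Fzd9 the RefSeq start lies within the longer GENCODE gene, so that 183 of its 250 bases fall inside the span given for Fzd9 further on, and all 250 of the Wnt5b window fall inside Wnt5b. The capitals mark CTTTGAT or its reverse complement ATCAAAG, the core that TCF/LEF factors of the canonical Wnt pathway recognise. Wnt6 is shown as the neighbour of Wnt10a that rose with it and Fzd9 as the receptor with the largest change, both without the core. A start of Wnt11 and an internal start of Wnt5b are shown as those of changed members that hold the core. The other RefSeq starts of Wnt5b and Wnt11 lacked it.

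Wnt6, chr1:74771642-74771891, plus strand: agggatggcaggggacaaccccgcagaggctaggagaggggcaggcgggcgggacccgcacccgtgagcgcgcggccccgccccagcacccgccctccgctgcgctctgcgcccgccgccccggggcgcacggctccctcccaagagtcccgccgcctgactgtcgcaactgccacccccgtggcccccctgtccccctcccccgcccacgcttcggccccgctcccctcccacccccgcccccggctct
Fzd9, chr5:135251048-135251297, minus strand: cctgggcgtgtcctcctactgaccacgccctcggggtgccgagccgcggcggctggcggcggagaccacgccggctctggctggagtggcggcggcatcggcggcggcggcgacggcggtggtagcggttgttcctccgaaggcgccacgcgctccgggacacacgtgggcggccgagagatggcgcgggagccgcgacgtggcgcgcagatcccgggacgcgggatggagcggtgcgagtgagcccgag
Wnt11, chr7:98834862-98835111, plus strand: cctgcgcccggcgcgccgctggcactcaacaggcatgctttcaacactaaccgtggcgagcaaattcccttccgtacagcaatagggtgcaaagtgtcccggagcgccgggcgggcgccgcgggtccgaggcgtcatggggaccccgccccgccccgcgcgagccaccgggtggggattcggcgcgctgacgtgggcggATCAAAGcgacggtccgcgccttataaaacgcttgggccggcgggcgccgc
Wnt5b, chr6:119449387-119449636, minus strand: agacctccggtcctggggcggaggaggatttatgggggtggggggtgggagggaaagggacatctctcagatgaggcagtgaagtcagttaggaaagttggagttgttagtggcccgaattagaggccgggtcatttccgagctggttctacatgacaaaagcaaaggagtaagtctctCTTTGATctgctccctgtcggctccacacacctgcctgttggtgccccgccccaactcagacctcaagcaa

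The core began 51 bases before the Wnt11 start site shown, in reverse orientation, and 71 bases before the internal Wnt5b start shown. Searched on both strands of promoters reaching from 250 bases before to 50 after the start, CTTTGAT was in 2 of 33 member promoters (6.06%) and in 3.73% of all 32851 promoters. The ETS core CCGGAAG, which Pea3 factors recognise, was in 1 of the 33 (3.03%), that of Fzd10, and in 8.86% of all promoters. The letter matches describe these windows only. The regions before Wnt6 and Fzd9 were rich in G and C, at 79.6% and 76.4%.

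Of the 19 Wnt ligands, 8 rose, 4 were tested and did not pass, and 7 were too low to test. The summed level of the 19 was 486, 356 and 270 CPM in control replicates 1 to 3 and 1360, 1210 and 769 CPM in Pea3 TKO replicates 1 to 3. Every Pea3 TKO sample lay above every control, and the mean was 3 times as high. Wnt4, Wnt5b and Wnt6 made up 81.8% of this sum in controls and 75.9% in Pea3 TKO. The 8 ligands that rose were Wnt2, Wnt4, Wnt5a, Wnt5b, Wnt6, Wnt7b, Wnt10a and Wnt11, and for each of them the groups did not overlap. With the level of Y-linked genes as a covariate, since embryo sex differed between samples, 7 of these 8 did not pass. That fit rests mainly on Pea3 TKO replicate 3, the only Pea3 TKO sample with the Y-linked level of the controls.

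Wnt5b, a ligand mostly linked to beta-catenin-independent signaling, had the highest level per length of exon among the ligands in controls. It lies on chromosome 6 from 119432531 to 119544347. Its CPM was 160, 146 and 106 in controls and 370, 408 and 247 in Pea3 TKO. The log2 fold change was 1.31 (SE 0.21, adjusted p = 0.0021). Its close relative Wnt5a, on chromosome 14 from 28504750 to 28527448, which acts in convergent extension and outgrowth, had 33.1, 24.5 and 26.9 CPM in controls and 98.9, 83.8 and 50.1 in Pea3 TKO. Every Pea3 TKO sample was above the controls for both genes, and the lowest of them was replicate 3. For Wnt5a the log2 fold change was 1.46 (SE 0.24, adjusted p = 0.0027).

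Wnt6 and Wnt10a are neighbours on chromosome 1, on the same strand, with 6.2 kb between them. Wnt6 spans 74771892 to 74785322 and Wnt10a 74791516 to 74804179. Wnt6, a canonical ligand of surface ectoderm, had 105, 81.7 and 59.0 CPM in controls and 307, 294 and 168 in Pea3 TKO, and its log2 fold change was 1.64 (SE 0.26, adjusted p = 0.002). Wnt10a, a canonical ligand of ectodermal placodes, rose more on this scale, from 26.4, 12.5 and 9.81 CPM to 104, 94.9 and 59.4 CPM, with a log2 fold change of 2.40 (SE 0.36, adjusted p = 0.0015). The difference between these changes was not tested. Both genes were highest in replicate 1 within each group. Of the other neighbouring pairs under 100 kb apart, Wnt3a and Wnt9a, Wnt9b and Wnt3, and Wnt10b and Wnt1, no gene passed the test.

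Wnt4 and Wnt7b, which act in tubule formation and in lung and skin epithelium, rose as well. Wnt4, on chromosome 4 from 137277489 to 137299726, had 127, 71.5 and 52.8 CPM in controls and 345, 223 and 174 in Pea3 TKO (log2 fold change 1.56, SE 0.33, adjusted p = 0.008). Wnt7b, on chromosome 15 from 85535437 to 85582473, had 20.2, 7.66 and 4.94 CPM in controls and 79.3, 72.1 and 47.2 in Pea3 TKO (log2 fold change 2.59, SE 0.45, adjusted p = 0.0033). Control replicate 1 held the highest control level of both, and without it the log2 fold change of Wnt7b was 3.39.

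Wnt2 and Wnt11 were low in controls. Wnt2, best known from mesenchyme of lung and other organs, had 33, 30 and 1 counts in controls and 310, 192 and 141 in Pea3 TKO. The log2 fold change was 3.43 (SE 0.75, adjusted p = 0.01), the largest among the ligands tested. Wnt11, which acts in cell movement and in ureteric branching, had 3.83, 2.99 and 5.52 CPM in controls and 16.6, 15 and 11 in Pea3 TKO (log2 fold change 1.78, SE 0.34, adjusted p = 0.0055). Of the Wnt11 exon length, 10.1% is shared with Gm8398 on the other strand, and of Wnt7b 5.1% with AU022754. The strand setting of the counting is not given in the sources used here, so reads from such pairs cannot be told apart.

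The other tested ligands did not pass. Wnt9a had 0, 3 and 8 counts in controls and 33, 40 and 14 in Pea3 TKO, with no overlap (log2 fold change 3.00, SE 1.09, adjusted p = 0.072), and DESeq2 gave it an adjusted p of 0.039. Wnt9b ranged from 0 to 115 counts in controls and from 0 to 118 in Pea3 TKO. Wnt3 had 0.789 to 2.93 CPM in controls and 1.33 to 8.76 in Pea3 TKO, and its 95% interval of the log2 fold change ran from -0.52 to 3.23. Wnt10b, the closest relative of Wnt10a, had 0.845 to 2.24 CPM in controls and 0.317 to 2.24 in Pea3 TKO, with an interval from -2.33 to 1.62. These intervals are wide, and changes as large as those of the ligands that rose lie within some of them.

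The composition of the ligand pool was described per kilobase of exon, which allows genes to be set side by side. In controls Wnt5b was at 52.0 ± 10.6 CPM per kb (SD, n = 3), Wnt6 at 39.5 ± 11.1, Wnt4 at 20.0 ± 9.16 and Wnt10a at 6.56 ± 3.61. The first pair lay within their spread. In Pea3 TKO Wnt5b and Wnt6 were at 129 ± 31.6 and 124 ± 37.0, Wnt4 at 58.9 ± 21.0 and Wnt10a at 34.8 ± 9.52. Wnt6 made up 30.7% to 31.4% of the ligand sum in controls and 30.6% to 33.2% in Pea3 TKO, so its share overlapped between the groups although its level did not. The share of Wnt5b was 36.5% to 43.8% in controls and 30.2% to 36.0% in Pea3 TKO, and that of Wnt10a was 4.03% to 6.47% and 9% to 9.12%.

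**Figure D2:**
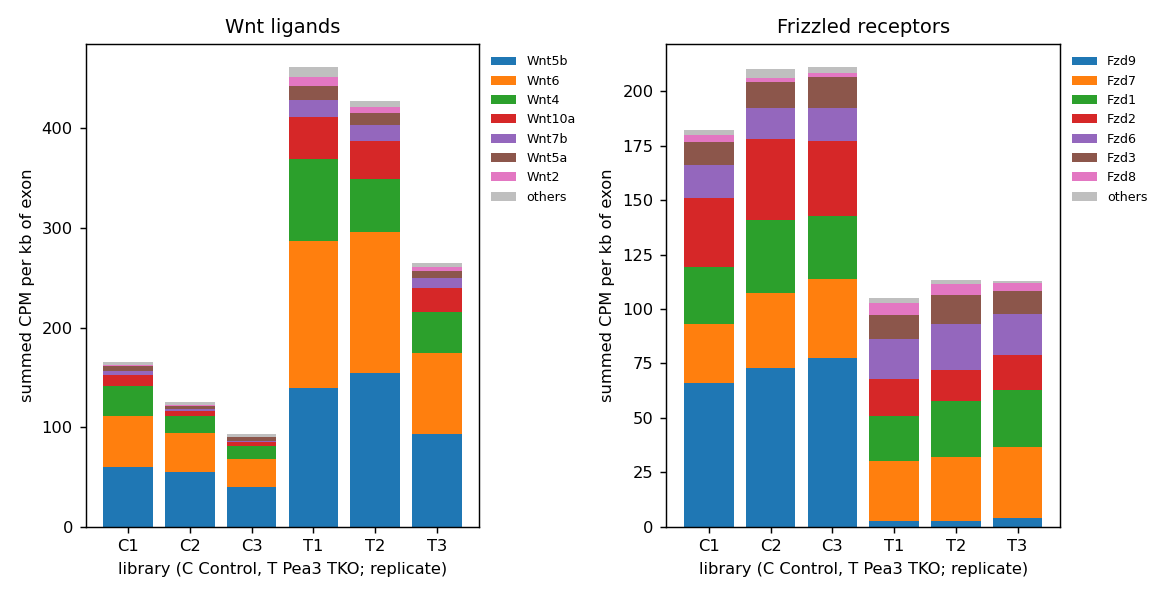
Summed CPM per kilobase of exon for the ligands (left) and the Frizzled receptors (right) in each library, C for control and T for Pea3 TKO, with the 7 genes of the highest mean level in colour and the others in grey. The ligand bars grow with Wnt5b and Wnt6 as the largest parts, and the Frizzled bars shrink as Fzd9 falls from 34.7% or more of the sum to 3.6% or less.

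Among the receptors, Fzd9 showed the largest decrease of all tested members. Fzd9, on chromosome 5 from 135248938 to 135251230, is a Frizzled receptor studied in bone, muscle and the hippocampus. Its CPM was 151, 167 and 178 in controls and 5.84, 6.01 and 9.33 in Pea3 TKO. This is a 23.3-fold decrease, with a log2 fold change of -4.54 (SE 0.21, adjusted p = 2.5e-06), and between -4.80 and -4.14 over all alternatives. Per kilobase it was the highest Frizzled gene in controls at 72.0 ± 5.93 CPM (SD, n = 3), more than its spread above Fzd2 at 34.4 ± 2.69 and Fzd7 at 32.7 ± 4.74, which lay within their spread of each other. In Pea3 TKO it was at 3.08 ± 0.859, and Fzd7 led at 30 ± 2.27.

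Fzd2 and Fzd5 also fell. Fzd2, a receptor for Wnt5a and other ligands, on chromosome 11 from 102604396 to 102608058, had 116, 136 and 125 CPM in controls and 61.2, 51.5 and 59.5 in Pea3 TKO (log2 fold change -1.13, SE 0.13, adjusted p = 0.00044). Fzd5, which is required for eye development, on chromosome 1 from 64730558 to 64737751, had 12.1, 21.7 and 16.7 CPM in controls and 4.57, 3.07 and 1.53 in Pea3 TKO (log2 fold change -2.46, SE 0.43, adjusted p = 0.0034). For both genes every Pea3 TKO sample lay below every control. Of the Fzd5 exon length, 17.8% is shared with Gm38058 on the other strand.

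Fzd6 and Fzd8 rose by less. Fzd6, which acts in planar polarity of skin and hair, had 65.5, 62.5 and 66.1 CPM in controls and 81.0, 92.5 and 82.2 in Pea3 TKO (log2 fold change 0.40, SE 0.12, adjusted p = 0.041). Fzd8, a canonical receptor, had 20.5, 10.3 and 9.55 CPM in controls and 33.0, 31.4 and 23.7 in Pea3 TKO (log2 fold change 1.12, SE 0.31, adjusted p = 0.026). Neither call was firm. Leaving out any 1 sample ended the call of Fzd6, with an adjusted p of 0.055 to 0.13, and so did the replicate number as a block (0.071). Fzd8 had an adjusted p of 0.095 without control replicate 2, 0.086 without control replicate 3, 0.086 without Pea3 TKO replicate 1 and 0.076 without Pea3 TKO replicate 2.

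The remaining Frizzled genes did not pass the test. Fzd1, Fzd3 and Fzd7 were abundant, and their log2 fold changes were -0.30, -0.09 and -0.13. Their 95% intervals ran from -0.61 to 0.02, from -0.42 to 0.23 and from -0.43 to 0.17, which leaves no room for a change as large as that of Fzd2. Fzd4 (1.80 to 3.18 CPM in controls, 2.35 to 6.79 in Pea3 TKO) and Fzd10 (0.225 to 0.996 and 1.06 to 2.67) were low. As a class the Frizzled genes summed to 736, 853 and 868 CPM in controls and 548, 601 and 569 in Pea3 TKO. The groups did not overlap, but without Fzd9 the sums were 585, 686 and 690 CPM in controls and 542, 595 and 560 in Pea3 TKO, which overlapped.

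**Figure D3:**
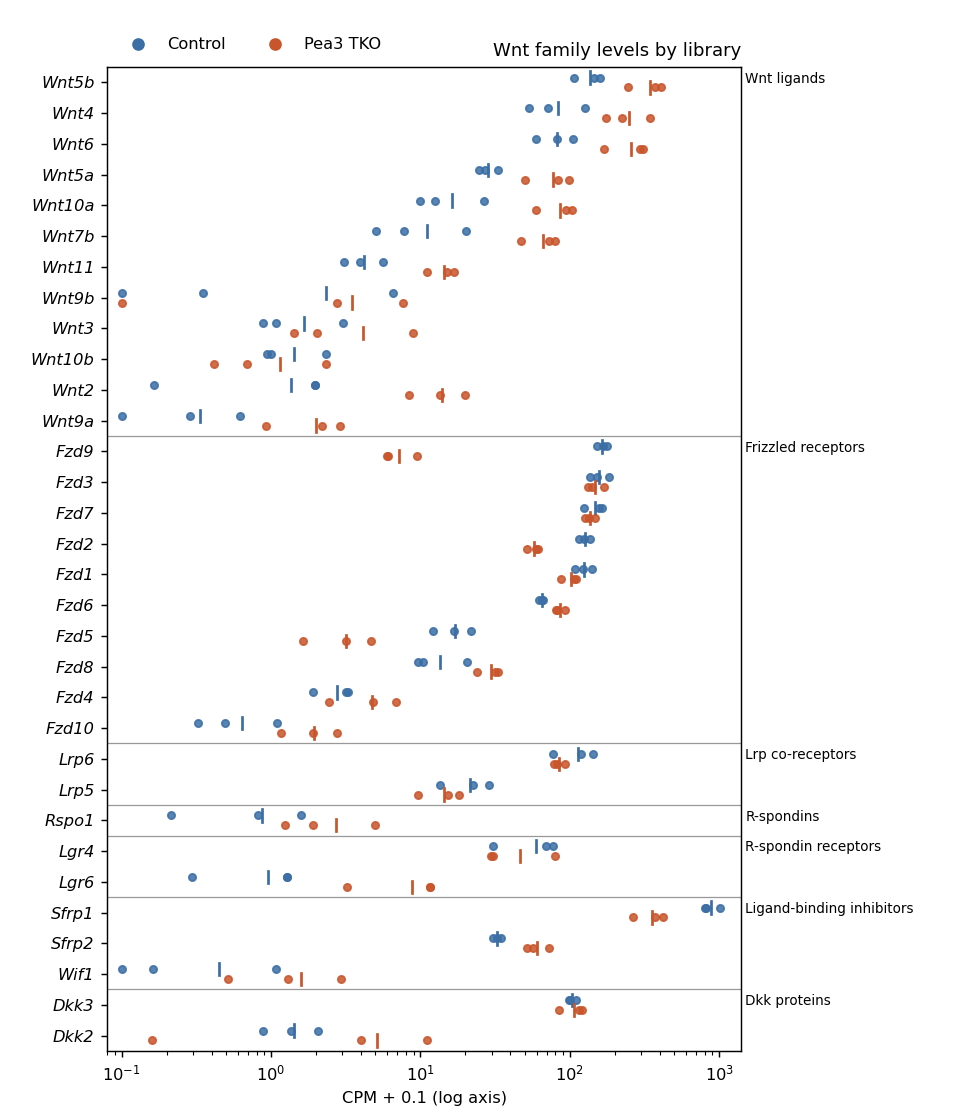
Level of the 32 tested members in each library on a log axis (CPM + 0.1), grouped by class, with controls in blue, Pea3 TKO in orange and a short line at the group mean. Fzd9 is among the highest receptors in controls at 151 CPM or more and sits at 9.33 CPM or less in Pea3 TKO, whereas Fzd3, Fzd7 and Dkk3 overlap.

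Neither co-receptor passed the test. Lrp6 had 77.0, 119 and 142 CPM in controls and 93, 78 and 81.6 in Pea3 TKO (log2 fold change -0.42, SE 0.20, adjusted p = 0.16), and the groups overlapped. Without control replicate 1, its lowest control, Lrp6 was lower with an adjusted p of 0.011. Lrp5 was lower in level than Lrp6 per kilobase, at 3.56 ± 1.27 against 12.1 ± 3.51 CPM in controls (SD, n = 3), and its log2 fold change was -0.59 (95% interval -1.32 to 0.15).

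The R-spondin arm was weakly expressed at the ligand level. Rspo1 was the only R-spondin tested, with 2, 24 and 11 counts in controls and 18, 70 and 31 in Pea3 TKO (log2 fold change 1.75, SE 0.94, adjusted p = 0.2). Its receptors differed. Lgr6, a marker of skin and appendage progenitors, rose from 21, 19 and 3 counts to 49, 164 and 196 counts (log2 fold change 3.33, SE 0.73, adjusted p = 0.01), and the groups did not overlap. Lgr4, broadly expressed in epithelia, had 30.4, 69.1 and 77.3 CPM in controls and 29.8, 30.3 and 78.9 in Pea3 TKO, and its spread within each group covered the difference (adjusted p = 0.59).

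Of the secreted inhibitors that bind Wnt ligands, Sfrp1 fell and Sfrp2 rose. Sfrp1, on chromosome 8 from 23411502 to 23449632, was the most abundant member per kilobase in controls, at 201 ± 28.4 CPM (SD, n = 3). It had 816, 800 and 1020 CPM in controls and 371, 420 and 266 in Pea3 TKO, a 2.49-fold decrease (log2 fold change -1.32, SE 0.18, adjusted p = 0.00094). Sfrp2, on chromosome 3 from 83766321 to 83774316, had 32.6, 34.3 and 30.6 CPM in controls and 72.6, 51.4 and 56.3 in Pea3 TKO (log2 fold change 0.89, SE 0.17, adjusted p = 0.0049). For both genes the groups did not overlap, and Sfrp1 remained 68.3% to 78.6% of its class per kilobase in Pea3 TKO. Of the Sfrp2 exon length, 17.3% is shared with Gm26771 on the other strand. Wif1 had 0, 1 and 15 counts in controls and 45, 17 and 7 in Pea3 TKO, with overlap (adjusted p = 0.27).

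The Dkk genes did not pass the test. Dkk3, a divergent member of the family, was the abundant one, at 97.9, 99.9 and 110 CPM in controls and 115, 121 and 84.0 in Pea3 TKO (log2 fold change 0.05, 95% interval -0.29 to 0.39). Dkk2 had 14, 20 and 30 counts in controls and 62, 157 and 1 in Pea3 TKO. Without Pea3 TKO replicate 3 its log2 fold change was 2.48 with an adjusted p of 0.028, against 1.90 and 0.25 with all samples. Without Pea3 TKO replicate 2 it was 0.58 (adjusted p = 0.79), and with the Y-linked covariate -4.57 (adjusted p = 0.091), so that the direction for Dkk2 was not settled. The value with the covariate rests mainly on Pea3 TKO replicate 3, with its 1 count.

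The 14 members under the filter had at most 29 counts in any library. Wnt1, Wnt8b, Sfrp4, Sfrp5 and Rspo4 had no count in any library, which at 3 counts allows up to 0.169 to 0.21 CPM per library, a limit that covers counting error only. Rspo2, Rspo3, Wnt3a, Wnt7a, Wnt8a, Wnt16, Dkk1 and Dkk4 had reads in some libraries, at most 25 in any of them. Wnt2b had 1, 29 and 11 counts in controls and 0 in each Pea3 TKO sample. Most of its counts came from control replicate 2. It passed the filter and the test without control replicate 1 (adjusted p = 0.02).

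The rise of the ligands went along with other marker levels. The list of Krt4, Krt5, Krt13, Krt14, Krt15, Sfn and Trp63, genes of stratified epidermis and conjunctiva, summed to 1570, 597 and 541 CPM in control replicates 1 to 3 and to 7290, 6380 and 5110 in Pea3 TKO replicates 1 to 3. Within each group the samples stood in the same order as for the ligand sum. Krt15 and Krt5, the largest terms in Pea3 TKO, followed this order in both groups, and the other genes of the list did not. Krt14 had 433, 651 and 745 CPM and Sfn 472, 476 and 479 CPM in Pea3 TKO replicates 1 to 3. Of this list, 6 of 7 genes rose, Trp63 being the exception, beside 13.6% of all genes tested. Of the mesenchyme list, 3 of 14 genes passed, or 21.4% beside the 25.0% of all genes tested. Dcn and Lum were higher, though their groups overlapped, and Foxc2 was lower. The mesenchyme list summed to 446 to 506 CPM in controls and 426 to 1050 in Pea3 TKO. Of its matrix genes, Col1a1, Col1a2, Col3a1, Dcn and Lum together had 10.8, 17.2 and 106 CPM in controls and 384, 538 and 9.10 in Pea3 TKO. Postn, another of them, had 2.53, 9.4 and 19.2 CPM in controls and 17.1, 20.4 and 1.29 in Pea3 TKO. Foxc1, Foxc2 and Vim, the highest of the list in controls, had 259, 64.2 and 87.2 CPM in Pea3 TKO replicate 3. Their control means were 210, 117 and 87.8 CPM.

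In Pea3 TKO replicate 3 the sum of Col1a1, Col1a2, Col3a1, Dcn and Lum lay below every control. Taken singly, Dcn (2.41 CPM) and Lum (2.05 CPM) in that sample lay above control replicates 1 and 2. Among the ligands that rose, the ratio of this sample to the control mean was 1.78 for Wnt5a, 1.8 for Wnt5b, 2.05 for Wnt6 and 2.08 for Wnt4. It was 2.67 for Wnt11, 3.66 for Wnt10a, 4.32 for Wnt7b and 6.55 for Wnt2. Among the other members that rose, it was 1.27 for Fzd6, 1.73 for Sfrp2, 1.76 for Fzd8 and 13.5 for Lgr6. For all 8 ligands that rose, Pea3 TKO replicate 3 was the lowest Pea3 TKO sample. The part of the keratin levels in these results was not tested. Of the markers of the labelled tissue, Epcam, Krt8 and Cdh1 were the highest averaged over all samples, and Epcam stood at 1410 ± 88.1 CPM in controls and 1260 ± 73.4 in mutants (SD, n = 3). The other 5 of the 6 epithelial markers rose in Pea3 TKO, beside 13.6% of all genes tested. Endothelial, immune and melanocyte lists each summed to at most 15 CPM in any sample, with Emcn and Tyrp1 at 0 in all 6, as were the globin genes Hba-a1 and Hba-a2, while the blood list, mostly Hbb-y, reached 31.3 to 101 CPM in controls and 47.4 to 221 in Pea3 TKO.

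**Figure D4:**
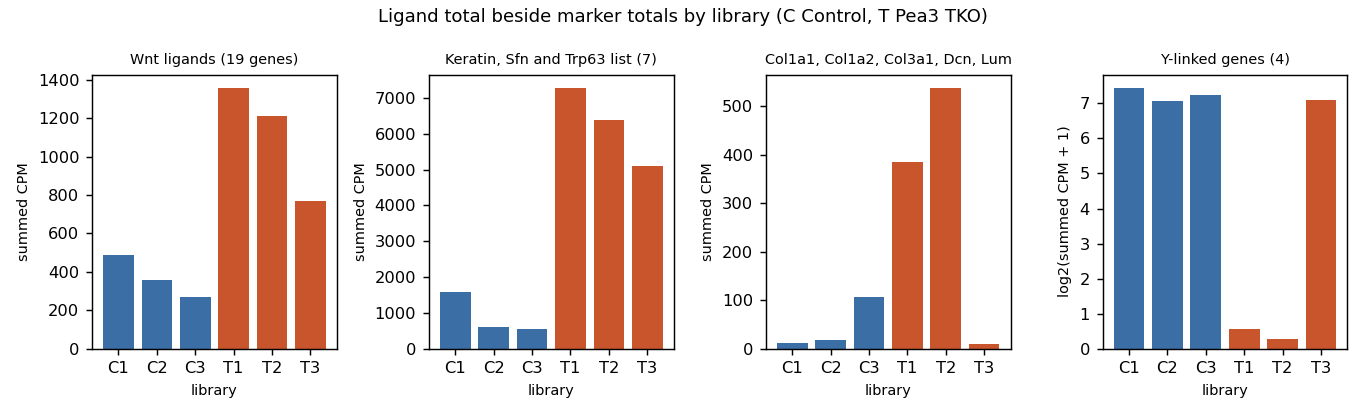
Summed CPM of the 19 ligands, of the keratin, Sfn and Trp63 list and of 5 fibroblast matrix genes, and log2 of the summed CPM + 1 of 4 Y-linked genes, in each library (C control, T Pea3 TKO). Pea3 TKO replicate 3 has 769 CPM of ligands, above every control, with 9.10 CPM of matrix genes and the Y-linked level of the controls.

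Embryo sex differed along with genotype in part of the samples. With the Y-linked level as a covariate, the log2 fold changes of the 8 ligands that rose were smaller, from 0.83 to 2.69 where they had been 1.31 to 3.43. Wnt6 went from 1.64 to 1.03, Wnt5a from 1.46 to 0.83 and Wnt5b from 1.31 to 0.83. All 12 members that rose stayed positive, but only Wnt10a (adjusted p = 0.041) and Lgr6 (0.048) passed the test, with Wnt6 at 0.062, Wnt5b at 0.064 and Wnt7b at 0.066. The 4 members that fell all passed, Fzd9 at -4.14, Fzd5 at -3.49, Sfrp1 at -1.74 and Fzd2 at -1.08. In a fit added after the data were seen, which kept the 4 libraries with Y-linked reads and so had Pea3 TKO replicate 3 alone in its group, the same 4 passed as lower and none as higher. There 9 of the 12 were higher at an unadjusted p under 0.05 in the edgeR test, beside 11% of all genes, but the 12 had been chosen in a fit that held these same samples, and the smallest adjusted p among them was 0.063. Both Y-linked fits rest mainly on Pea3 TKO replicate 3 against the controls, since only it carried the Y-linked level of the controls in its group. They gave Wnt6, for example, log2 fold changes of 1.03 and 1.05, and are not separate checks. Pea3 TKO replicates 1 and 2 differed from the controls in both genotype and sex. In these samples the parts of genotype and sex in the rise cannot be told apart.

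Other genes of the Wnt pathway were taken from a list of 82 that holds no member. Of these, 73 were tested, 11 rose and 11 fell, or 30.1% beside the 25.0% of all genes. With the Y-linked covariate, 5 pathway genes passed as higher and 5 as lower. The values below are from the fit without it. In secretion and reception of ligands, Wls, the carrier that takes Wnt proteins to the cell surface, rose from 347, 286 and 291 CPM to 635, 622 and 510 (log2 fold change 0.93, SE 0.13, adjusted p = 0.0012). The proteoglycan Sdc1 rose (0.81) and Gpc3 fell (-1.03). Trabd2b, which cleaves and inactivates Wnt proteins, fell to near 0 (-4.63, adjusted p = 0.0096). Of 12 other receptors and co-receptors, Ror1, a tyrosine kinase receptor for Wnt5a, fell from 44.6, 40.8 and 56.8 CPM to 18.1, 16.4 and 17.4 (-1.45, SE 0.18, adjusted p = 0.00068), and the other 11 did not pass.

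Among other extracellular and membrane modulators, 5 of 7 tested genes passed. Sostdc1, an antagonist of Wnt and BMP signaling, rose (1.78), as did Cthrc1, a cofactor of the polarity branch (2.37, from 4.91 ± 2.23 to 25.5 ± 6.92 CPM, SD, n = 3), and the inhibitor Apcdd1 (1.27, adjusted p = 0.047). Tnfrsf19 fell from 200, 218 and 317 CPM to 47.4, 51.4 and 56.5 (-2.24, SE 0.18, adjusted p = 6.6e-05), and Igfbp4, which can bind Frizzled and Lrp6, fell as well (-1.72). In the planar polarity list, 3 of 13 tested genes rose, Prickle1 (1.75), Prickle3 (1.60) and Vangl1 (0.54), and Celsr2 fell (-0.73).

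Inside the cell, of 21 tested genes of the destruction complex and its partners, 3 fell and none rose, while 18 did not pass, among them Ctnnb1, which encodes beta-catenin (1480 and 1680 CPM on average, log2 fold change 0.19, adjusted p = 0.26). The 3 were Nkd2 and Nkd1, which bind Dishevelled and act as feedback inhibitors, and Ctnnbip1, which keeps beta-catenin from TCF factors. Nkd2 had 111, 112 and 127 CPM in controls and 12.1, 24.7 and 16.2 in Pea3 TKO (-2.73, SE 0.24, adjusted p = 9.6e-05). Axin2, a common readout of canonical signaling, was low in both groups, at 2.77 ± 0.644 and 3.86 ± 1.59 CPM (SD, n = 3, adjusted p = 0.54). Of 14 tested nuclear genes 5 passed. Sp5, a target of beta-catenin, rose from 0.789, 0.249 and 0.26 CPM to 6.03, 11.1 and 10.9 (4.39, SE 0.60, adjusted p = 0.00099). Lef1, low in controls, rose from 15, 2 and 5 counts to 82, 34 and 27 (2.79, SE 0.86, adjusted p = 0.04). Tle4 (0.58) rose, and Hmga2 (-1.13) and Tle3 (-1.73) fell.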

How the data were processed

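E14.5 lacrimal gland epithelium was measured by RNA-seq in 3 control and 3 Pea3 TKO samples. The authors deposited raw, unnormalized read counts for each gene symbol, with a table for every sample. The submitters' processing notes name bcl2fastq 2.17, STAR 2.5.2b, featureCounts 1.5.0-p3, DESeq and the build mm10. The annotation and strand setting are not given in the sources used here. RNA was amplified before library preparation, so counts of reads are not independent molecules.

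From these counts, genes were kept by filterByExpr of edgeR 4.0.16 (R 4.3.3, minimum count 10), normalized by TMM and tested by the quasi-likelihood test (condition alone in the model) with Benjamini-Hochberg adjustment. SE is the absolute log2 fold change over the square root of F. DESeq2 1.42.0 was an alternative, beside other size factors, other filters, a Y-linked covariate, the replicate number as a block and leaving out each sample. Positions and exon lengths (union of exons) are those of GENCODE M21 on GRCm38, the same assembly as mm10. The scripts were tested on simulated counts with 200 of 12858 genes changed. There 53% of the 2-fold and 73% of the 4-fold changes were recovered, and 8.03% of the calls were false. A changed gene could thus fail the test in the simulation. In the data 25.0% of genes passed, a far larger share than was changed there, so these rates need not hold for the data. Replicates differed beyond sampling noise (chi-square over its degrees of freedom at least 15.7 for each pair in a group).

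The members and the gene lists were chosen with earlier results of these data known. All members were named or counted. Of each pathway list up to 6 genes past the threshold were named by smallest p. The list of epidermis and conjunctiva was named in full. The mesenchyme genes named were those past the threshold, matrix genes and the highest in controls. Of the other marker lists up to 3 genes were named, by level or as absent from all samples.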

Additional observations from a re-analysis of the deposited data

How the results depend on the processing

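The number of genes past the threshold was 3268, and leaving out each sample in turn moved it between 1948 and 3344, with 1948 without control replicate 3, 1963 without control replicate 2 and 2072 without Pea3 TKO replicate 2. In these fits the members that rose numbered 10 to 12 and those that fell 4 to 6, and the pathway genes 8 to 11 and 9 to 12. At an adjusted p threshold of 0.01, 1426 genes, 8 members higher and 4 lower remained in number. The Y-linked covariate left 778 genes, 2 members and 5 pathway genes higher, and 4 members and 5 pathway genes lower. In the fit of libraries with Y-linked reads only, added after the data were seen, 597 genes passed, with 0 members higher (9 of the 12 at an unadjusted p under 0.05 in edgeR, beside 11% of all genes, with the 12 chosen in a fit that held the same samples, no other tool run), 4 members lower, 4 pathway genes higher and 5 lower. The lone Pea3 TKO sample of that fit is assumed to vary like the controls. The fit with the Y-linked covariate rests mainly on the same Pea3 TKO sample. The cause of these moves was not tested. At the 0.05 threshold and outside the 2 Y-linked fits, 14 of the 16 member calls held under every alternative run, the exceptions being Fzd6 and Fzd8, and none of the 16 turned its sign in any fit.

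When replicate number entered as a block, 3191 genes, 11 members higher and 4 lower passed. Over all tested genes, deviations from the group means correlated at -0.064 to 0.144 for samples with the same number and -0.133 to 0.119 for others. The numbers were therefore not taken to pair samples. The ligand sum nonetheless fell from replicate 1 to replicate 3 in both groups. With the block in edgeR, the adjusted p was smaller for every ligand that rose except Wnt11. It was 0.00012 for Wnt4 (0.008 without the block), 0.00012 for Wnt6 (0.002 without it) and 0.01 for Wnt11 (0.0055 without it). Whether the numbers mark litters is not in the labels. At this depth 3 counts stand for 0.169 to 0.21 CPM, which limits what can be said of the 14 untested members.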
